A study of Homo sapiens with 4 samples.

Results

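The basal and stress keratins are 9 genes of the keratin family (KRT5, KRT6A, KRT6B, KRT6C, KRT13, KRT14, KRT15, KRT16 and KRT17), and each of them was measured by 1 probe with 1 spot per array, so that they made up 9 of the 34127 probes of the array and 9 of the 19483 genes named on it. A probe was taken as a member when the transcript accession printed for it in the scanner files belongs to one of these genes. The set was chosen by gene name, with the detection, levels and differences of its probes on the same 4 arrays already known from an earlier look at these data, so every difference between the transfections given here for a member is a description and no support for a pattern. HuCCT1, a human intrahepatic cholangiocarcinoma cell line that is grown in medium with 10% serum, was transfected with 30 nM of one of 4 small RNAs. These were Pre-miR-376c (a mimic of mature miR-376c-3p), its Pre-miR negative control, siGRB2-2 (an siRNA against GRB2, written siGRB2 in the sample labels) and an siRNA negative control. At 24 h after transfection all 4 cultures received 5 ng/ml EGF in medium with 0.1% serum for 24 h, so that no culture without EGF and no untransfected culture was compared. From each culture 200 ng of RNA was labelled with 1 dye for 1 array (human 44 K design). Each condition is therefore 1 culture on 1 array, the spread between cultures was not measured, and no test between conditions could be made.

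Keratins are the intermediate filament proteins of epithelia, and a filament is built from pairs of a type I and a type II chain. Basal cells of stratified epithelia contain the type II keratin KRT5 with the type I keratins KRT14 and KRT15, while the type II keratins KRT6A, KRT6B and KRT6C pair with the type I keratins KRT16 and KRT17, which are known as stress keratins because wounding and inflammation raise them in skin. KRT13 is the type I partner of KRT4 in the suprabasal layers of mucosa such as the oesophagus. Bile duct epithelium is a simple epithelium, whose usual keratins are KRT7, KRT8, KRT18 and KRT19. EGF receptor signalling, in which the adaptor GRB2 links the receptor to RAS, is a known regulator of KRT6, KRT16 and KRT17 in keratinocytes.

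The microRNA that was supplied by Pre-miR-376c is shown because it is the agent of one of the treatments. Its mature sequence in RefSeq (GRCh38.p14) lies at chr14:101039732-101039752 on the + strand, and capitals mark the seed, bases 2 to 8 from the 5′ end, through which a microRNA pairs with its targets.
hsa-miR-376c-3p: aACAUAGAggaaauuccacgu

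The targeted gene was examined first. GRB2 (probe A_24_P407717) had a signal of 4142 with Pre-miR negative control, 2174 with Pre-miR-376c, 1607 with siRNA negative control and 1272 with siGRB2-2. GRB2 was thus lowest on the array labelled siGRB2-2, and its log2 difference from the matching negative control was -0.55 for either treatment. Between the negative controls GRB2 differed by -0.72, siRNA negative control being the lower one. Against the other negative control it was at -1.27 with siGRB2-2 and at 0.17 with Pre-miR-376c. Signals are the background-corrected intensities of the scanner software before the arrays are brought to a common scale. All differences were computed on log2 values after subtraction of each array's 75th percentile signal, which lay between 1719 and 2689 on the 4 arrays. A probe counted as detected when the software flagged its spot as well above background, and the weakest detected signal lay between 21.2 and 24.4. The siRNA negative control array stood apart from the other 3 arrays. The SD of the log2 differences over the 21239 probes detected on all 4 arrays was 0.54 to 0.58 in the 3 pairs that include it and 0.31 to 0.36 in the 3 pairs that do not, so the differences of the detected basal and stress keratins with siGRB2-2 are also given against the Pre-miR negative control. The biliary markers KRT7, KRT19, EPCAM and SOX9 were detected on all 4 arrays. Of the 7 probes for fibroblast genes 2 were detected (COL1A1 and LUM), and of the 4 probes for hepatocyte genes 1 was detected (a probe of APOA1), with ALB and TTR at background on every array, as were COL1A2, COL3A1, DCN and PDGFRB. COL1A1 was at -1.01 with Pre-miR-376c and 0.59 with siGRB2-2 against their own controls, and LUM was at 0.31 and 0.50. Of the 7 probes for leukocyte genes 4 were detected on all arrays (2 of PTPRC, and those of CD14 and CD68), with differences from -0.34 to 0.13 for Pre-miR-376c and from -0.07 to 0.42 for siGRB2-2. Of the 5 probes for endothelial genes 2 were detected on all arrays, VWF at -0.61 and 0.77 and CDH5 at 0.19 and 0.21. VWF and COL1A1 thus had the signs of KRT14 in both comparisons, and against Pre-miR negative control they were at 0.03 and 0.20 with siGRB2-2. A part of other cells in the keratin values was not tested.

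None of the 4 type II keratins of the set was detected on any array. KRT5 (A_23_P218047) gave a signal of 4.66 with Pre-miR negative control, 5.83 with Pre-miR-376c, 4.73 with siRNA negative control and 9.40 with siGRB2-2. KRT6A (A_33_P3292886) gave 19.3, 17.2, 9.85 and 17.1 on the same arrays, KRT6B (A_23_P76249) 11.2, 6.50, 8.43 and 9.33, and KRT6C (A_23_P366936) 4.59, 7.81, 5.80 and 4.97. All 16 of these signals lay under the lowest detected signal of their array. For these 4 genes the arrays therefore give only an upper bound, and no difference between the transfections was computed. KRT5 and the KRT6 genes are the usual partners of KRT14, KRT16 and KRT17, and KRT6B, KRT6C, KRT6A and KRT5 follow each other in this order on chromosome 12 with 0 coding genes between neighbours. The type I members KRT13, KRT14, KRT15, KRT16 and KRT17, all on chromosome 17, were detected on all 4 arrays. None of their spots was saturated or carried an outlier flag.

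KRT14, the type I keratin of basal cells, had the widest range among the members. Its probe (A_33_P3345534) gave a signal of 574 ± 57.7 with Pre-miR negative control, 130 ± 14.4 with Pre-miR-376c, 144 ± 15.6 with siRNA negative control and 1183 ± 118 with siGRB2-2, where ± is the scanner software's own error of a spot and covers no variation between cultures. On the common scale KRT14 was highest with siGRB2-2, followed by Pre-miR negative control, siRNA negative control and Pre-miR-376c. The first 2 gaps in this order were larger than 2 scanner errors, whereas the gap of 0.42 (log2) between siRNA negative control and Pre-miR-376c was not. With Pre-miR-376c the log2 difference of KRT14 was -1.76 ± 0.22 against its own control, a level of 29.4% of that control. With siGRB2-2 it was 2.82 ± 0.21 against siRNA negative control, which is 7.06-fold higher. Because KRT14 also differed by -1.35 ± 0.21 between the 2 negative controls, siRNA negative control being the lower one, both results depended on the control. Against the other negative control, the KRT14 difference was 1.47 ± 0.20 (2.78-fold higher) for siGRB2-2 and -0.42 ± 0.22 for Pre-miR-376c. The level with siGRB2-2 was 9.43-fold that with Pre-miR-376c, a difference of 3.24 ± 0.22.

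KRT17, a stress keratin of wounded skin and hair follicles, followed nearly the same course. Its probe (A_23_P96158) gave a signal of 736 ± 73.8 with Pre-miR negative control, 198 ± 20.6 with Pre-miR-376c, 257 ± 26.2 with siRNA negative control and 1566 ± 157 with siGRB2-2. The order of the arrays was that of KRT14, and for KRT17 all 3 gaps were larger than 2 scanner errors. With Pre-miR-376c its log2 difference was -1.51 ± 0.21, or 35.0% of the control level, and siGRB2-2 gave 2.39 ± 0.21, or 5.25-fold higher than its control. Between the negative controls KRT17 differed by -0.87 ± 0.21. Against the other negative control, the difference of KRT17 was 1.52 ± 0.20 (2.87-fold higher) for siGRB2-2 and -0.64 ± 0.21 for Pre-miR-376c. KRT17 was 8.19-fold higher with siGRB2-2 than with Pre-miR-376c.

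KRT16, the other stress keratin, was much nearer to background. The signal of its probe (A_23_P38537) was 82.2 ± 9.65 with Pre-miR negative control, 46.1 ± 7.30 with Pre-miR-376c, 33.3 ± 6.11 with siRNA negative control and 142 ± 15.2 with siGRB2-2. KRT16 was highest with siGRB2-2, by 1.22 ± 0.23 (log2) over Pre-miR negative control, and the other 3 arrays followed each other by gaps of less than 2 scanner errors. Against siRNA negative control the difference with siGRB2-2 was 1.88 ± 0.31, which is 3.67-fold higher. On that control array the KRT16 signal was only 1.54 times the lowest detected signal. With another background correction, normexp, the difference was 0.95 and no longer reached 2-fold (0.92 against Pre-miR negative control). Normexp was run with an offset of 50 added to every intensity, which by itself makes differences between signals this low smaller. With Pre-miR-376c the KRT16 difference was -0.45 ± 0.28 against its own control and 0.21 ± 0.35 against the other, so no departure of KRT16 beyond 2 scanner errors was seen with the microRNA.

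**Figure D1:**
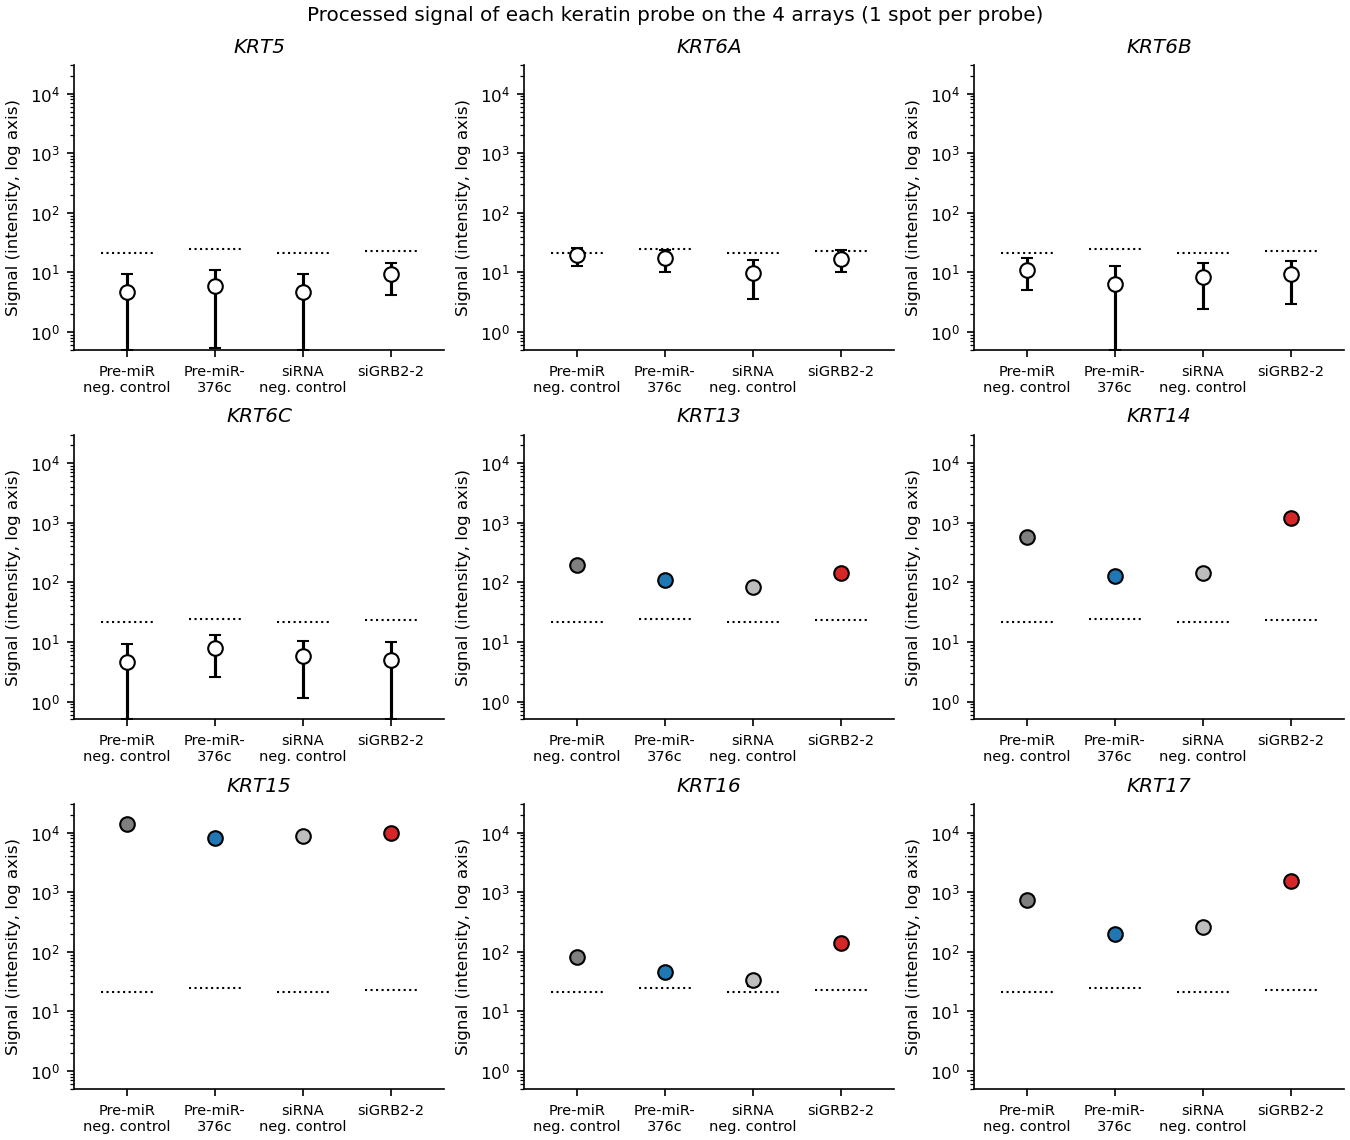
Signal of each of the 9 keratin probes (background-corrected intensity, log axis) on the 4 arrays, with bars for the scanner software's error of the spot (smaller than the symbol where not visible, and cut at the lower edge of the axis), filled symbols where the spot was well above background and dotted lines at the lowest detected signal of each array. The open symbols of KRT5, KRT6A, KRT6B and KRT6C lie under the dotted lines on all 4 arrays, and KRT14, KRT16 and KRT17 are highest with siGRB2-2.

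KRT13 and KRT15 varied less than KRT14, KRT16 and KRT17, and neither reached 2-fold in any comparison. KRT13 (A_24_P228149), the mucosal keratin, had signals of 199 ± 20.7 with Pre-miR negative control, 108 ± 12.5 with Pre-miR-376c, 82.6 ± 10.0 with siRNA negative control and 146 ± 15.9 with siGRB2-2. After scaling, its level was nearly equal with Pre-miR negative control and siGRB2-2 and lower on the other 2 arrays, with a full range of 0.63 (log2), or 1.54-fold. KRT13 differed by -0.50 ± 0.22 with Pre-miR-376c and by 0.61 ± 0.23 with siGRB2-2 against their own controls. Both of these differences were larger than 2 scanner errors and had the signs of KRT14. Against the other negative control KRT13 differed by 0.12 and -0.02. The differences from their own controls fell under 2 scanner errors with some other ways of processing. With Pre-miR-376c, quantile normalization gave KRT13 a value of -0.41, a median shift -0.39 and normexp -0.21. The siGRB2-2 values in this order were 0.31, 0.33 and 0.38. KRT15 (A_23_P27133), a basal keratin that also marks stem cells of the hair follicle, had signals of 13727 with Pre-miR negative control, 8210 with Pre-miR-376c, 8748 with siRNA negative control and 9953 with siGRB2-2. Its levels on the common scale spanned only 0.36 (1.28-fold) and no gap between neighbouring arrays exceeded 2 scanner errors. KRT15 differed by -0.36 ± 0.20 when Pre-miR-376c, and by -0.03 when siGRB2-2, was set against its own control, and the values against the other negative control were -0.36 and -0.03.

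Taken by comparison, 2 of the 5 detected members (KRT14 and KRT17) were at least 2-fold lower with Pre-miR-376c than with Pre-miR negative control and 0 were higher. Among all probes of that comparison 3.04% were at least 2-fold apart and 1.47% at least 2-fold lower. The median log2 difference of the 5 keratins was -0.50, and that of all probes detected on the 4 arrays was -0.03. With KRT14 itself counted, 13 of the 21239 probes lay at least as far down as KRT14, and 26 lay at least as far down as KRT17. Against siRNA negative control, however, 0 of the 5 keratins were 2-fold apart with Pre-miR-376c, where 7.26% of all probes were.

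With siGRB2-2, 3 of the 5 detected members (KRT14, KRT16 and KRT17) were at least 2-fold higher than with siRNA negative control and 0 were lower. Of all probes of that comparison, 9.82% were at least 2-fold apart and 6.71% at least 2-fold higher. The median of the 5 keratins was 1.88, beside 0.15 for all probes. With normexp correction that median was 0.95, and against the Pre-miR negative control it was 1.22. The same 3 keratins were at least 2-fold higher with siGRB2-2 than with Pre-miR negative control, where 1.93% of all probes were, and than with Pre-miR-376c, where 1.8% were. At least as far up as KRT14, itself counted, lay 10 of the 21239 probes against siRNA negative control, 43 against Pre-miR negative control and 2 against Pre-miR-376c. For KRT17 these numbers were 22, 40 and 4, and for KRT16 they were 74, 75 and 35. Between the negative controls KRT14 alone was at least 2-fold apart, being lower with siRNA negative control, as were 6.1% of all probes. KRT14 was within 2-fold there with normexp correction, at -0.94. These comparisons share arrays and are not independent of each other. As the samples are whole cultures, fewer cells with a keratin and less of its RNA per cell cannot be told apart.

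KRT14, KRT16 and KRT17 are next to each other on chromosome 17, with 0 coding genes between neighbours, and KRT13 and KRT15 are likewise adjacent. Between KRT15 and KRT14 lie KRT19 and KRT9. The likeness of patterns was measured by the Euclidean distance over the 4 log2 levels, each probe centred on its own mean. KRT17 was at a distance of 0.375 from KRT14, KRT16 at 1.22, KRT13 at 2.07 and KRT15 at 2.38. Among the 17434 named probes compared that are no member, the nearest to KRT14 were KRT16P2 at 0.584, WDR31 at 0.933, PCDHGA12 at 1.04, GOLGA2P10 at 1.05 and MICAL2 at 1.05. The likeness rests on 4 values per probe. KRT16P2 is a pseudogene copy of KRT16, and its probe (A_32_P62963) gave signals of 248 with Pre-miR negative control, 77.6 with Pre-miR-376c, 76.0 with siRNA negative control and 415 with siGRB2-2. KRT16P2 differed by -1.29 for Pre-miR-376c and by 2.23 for siGRB2-2 from their own controls, and by 1.17 with siGRB2-2 against Pre-miR negative control. By contrast, KRT17P5, a pseudogene copy of KRT17, differed by 0.06 and 0.45 in the first 2 comparisons on the only one of its probes that was detected (A_32_P46238). Transcripts of KRT14, KRT16, KRT17 and their pseudogene copies are close in sequence, and the sequences of the probes were not used here. How far 1 transcript contributed to the signal of several of these probes was not tested. On the array surface the 3 spots were far apart, with 126 rows between KRT14 and KRT17, 296 between KRT16 and KRT17, and 422 between KRT14 and KRT16.

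**Figure D2:**
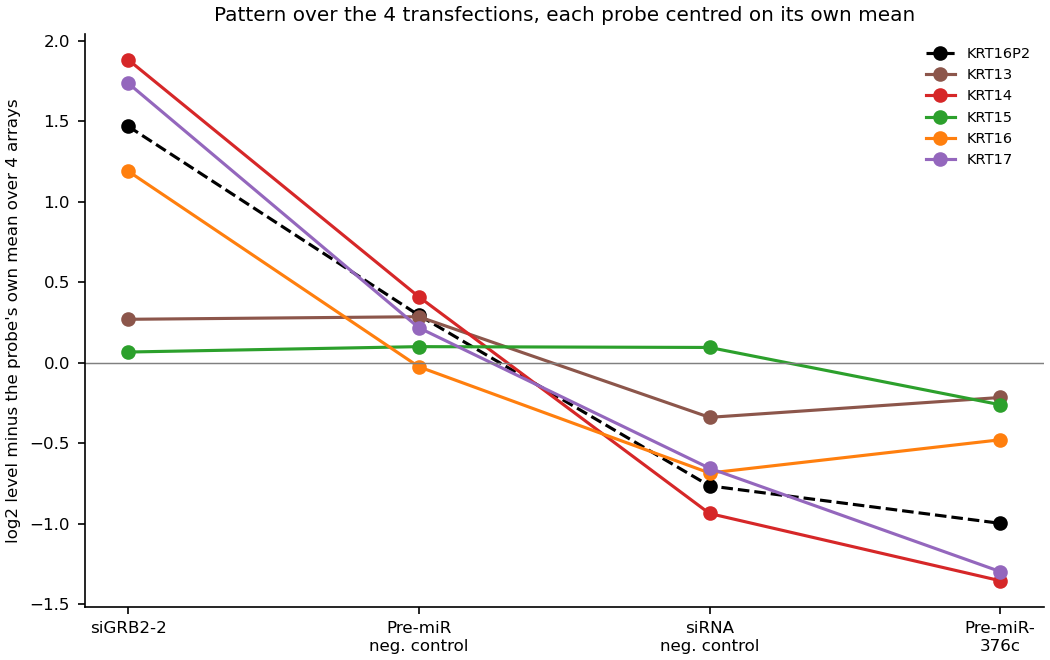
Log2 level of the 5 detected keratin probes and of KRT16P2 (dashed) on the 4 arrays, each minus the probe's own mean over the arrays, with 1 culture per point and lines that only join the points of a probe. KRT14, KRT17, KRT16P2 and KRT16 are highest with siGRB2-2, while the values of KRT13 span 0.63 and those of KRT15 span 0.36.

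Other keratins were examined to see where the basal and stress keratins differed from their family. The simple epithelial keratins (KRT7, KRT8, KRT18, KRT19 and KRT20) were measured by 7 probes, of which 6 were detected on all 4 arrays and KRT20 on none. With Pre-miR-376c against its own control 0 of them were 2-fold apart. Their log2 differences lay between 0.20 and 0.44, beside -1.76 to -0.36 for the 5 detected basal and stress keratins. Against siRNA negative control the 2 ranges overlapped, at -0.23 to 0.75 and -0.64 to 0.21. With siGRB2-2 the simple epithelial probes lay between -0.16 and 0.81, the highest being one probe of KRT8 (A_24_P67395), whose other probe was at -0.07. Against Pre-miR negative control the 6 probes were between 0.11 and 0.43 with siGRB2-2. KRT18, the type I partner of KRT8, differed by 0.44 and 0.20 with Pre-miR-376c and by 0.00 and 0.20 with siGRB2-2 on its 2 probes. KRT19, whose gene lies between KRT15 and KRT14, was at 0.27 and -0.16 in the 2 comparisons. KRT4, the type II partner of KRT13, differed by 0.00 and 0.45 in the 2 comparisons, and by 0.18 with siGRB2-2 against Pre-miR negative control.

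Among the 15 probes of differentiation keratins, which mark suprabasal or specialized epithelia, 8 were detected on all arrays. With Pre-miR-376c both probes of KRT23, a type I keratin, were at least 2-fold lower, at -1.25 and -1.15, and KRT9, the keratin of palm and sole skin whose gene lies between KRT15 and KRT14, was at least 2-fold higher, at 1.09. With siGRB2-2 0 of them were 2-fold apart from siRNA negative control, and KRT10 was at -0.75 (0.14 against Pre-miR negative control). KRT23 thus shared the direction of KRT14 and KRT17 with Pre-miR-376c against its own control. Against siRNA negative control its probes were at 0.17 and -0.40 with Pre-miR-376c. With siGRB2-2 KRT23 was at 0.39 and -0.08, and at -1.03 and -0.83 against Pre-miR negative control. Of the 26 probes for hair and hair follicle keratins, 10 were detected on all arrays. One probe of KRT83 (A_24_P410408) was at 2.21 and KRT33B at 1.22 with siGRB2-2 against siRNA negative control, while against Pre-miR negative control they were at 0.42 and 0.83. The other probe of KRT83 (A_33_P3273552) was at 0.85 and 0.26. KRT37 was at least 2-fold lower than with siRNA negative control, at -1.42, and at 0.02 against Pre-miR negative control. With Pre-miR-376c 0 of the hair keratin probes were 2-fold apart from its own control. Against siRNA negative control KRT83 was at 1.51 and 0.63 on its probes, KRT32 at -1.20 and KRT37, undetected with Pre-miR-376c, at -2.05 as a bound. KRT14, KRT16 and KRT17 were the only probes of these 4 keratin lists with at least 2-fold higher levels with siGRB2-2 against both negative controls. With normexp correction KRT16 was within 2-fold of both, at 0.95 and 0.92. The trait was not particular to these lists. Probes of the keratin pseudogenes KRT16P2 (2.23 and 1.17) and KRT42P (A_33_P3857239, 2.43 and 1.27) had it too, while the other detected pseudogene probes did not.

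Genes that accompany KRT14 in the basal layer of stratified epithelia were mostly within 2-fold in both comparisons, as were most probes of the arrays. Of the 22 probes of these genes 18 were detected on all arrays, 0 were 2-fold apart with Pre-miR-376c, and the median was -0.06. Among all probes 3.04% were at least 2-fold apart there. Against siRNA negative control 2 of the 18 were at least 2-fold lower with Pre-miR-376c (COL17A1 at -1.34 and S100A2 at -1.04) and 0 were higher. In that comparison 7.26% of all probes were at least 2-fold apart. With siGRB2-2, 1 of the 18 was at least 2-fold lower than with siRNA negative control (COL17A1, a hemidesmosome collagen, at -1.26), 0 were higher, and the median was 0.01. The share of all probes at least 2-fold apart was 9.82% there. Against Pre-miR negative control COL17A1 was at -0.45 and 0 of the 18 were 2-fold apart. TP63, the regulator of basal identity that acts on KRT5 and KRT14, was at background on all 4 arrays, as were BNC1 and both probes of DSC3. TRIM29, which was at -0.69 with Pre-miR-376c and 0.94 with siGRB2-2, was at -0.01 for siGRB2-2 against Pre-miR negative control. ITGA6, an integrin of the basal surface, was at 0.90 and -0.88 on one probe (A_23_P210176) and at 0.76 and 0.05 on the other.

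Genes of the cornified envelope, which the uppermost layers of skin build, were detected on all arrays by 11 of 26 probes. With Pre-miR-376c 1 of them was at least 2-fold lower, SPRR2A, a small proline-rich envelope protein, at -1.28 (A_33_P3260430). Against siRNA negative control that probe was at -0.06 with Pre-miR-376c. In that comparison SPRR1B and SPRR2D (A_33_P3322388) were at least 2-fold higher, at 1.03 and 1.02, and IVL was at least 2-fold lower. With siGRB2-2 the same SPRR2A probe was at -0.69 against siRNA negative control and at -1.92 against Pre-miR negative control. Its direction was opposite to that of KRT14, KRT16 and KRT17, but others of the list differed from it. SPRR2D (A_33_P3322388) was at 0.98 and SPRR1B at 0.69 against siRNA negative control, and at 0.33 and -0.87 against Pre-miR negative control. The other SPRR2D probe (A_23_P11644) was at -0.01 and -1.64. IVL, an envelope precursor, was detected only with siRNA negative control, at a signal of 53.2. Over the 11 probes detected on all arrays the median was -0.16 in the Pre-miR-376c comparison and 0.37 in the siGRB2-2 comparison. Of the 14 probes for desmosome proteins and linkers, which anchor keratin filaments to the cell surface, 12 were detected on all arrays and 0 were 2-fold apart with Pre-miR-376c. With siGRB2-2 JUP was at 1.19 and PKP2 at -1.62 against siRNA negative control, while both were within 2-fold of Pre-miR negative control, at 0.22 and -0.40.

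The regulators comprised 35 probes for transcription factors known to act on keratin genes, of which 27 were detected on all arrays. With Pre-miR-376c 1 of them was at least 2-fold lower and 0 were higher. This was TFAP2A, an AP-2 factor that binds the promoters of KRT14 and other epidermal keratins, with signals of 685 with Pre-miR negative control, 154 with Pre-miR-376c, 238 with siRNA negative control and 186 with siGRB2-2. TFAP2A was at -1.77 with Pre-miR-376c and at -0.57 with siGRB2-2 against their own controls, and at -1.45 with siGRB2-2 against Pre-miR negative control, where KRT14 was at 1.47. With Pre-miR-376c against siRNA negative control TFAP2A was at -0.89. Between the negative controls it differed by -0.88, siRNA negative control being the lower one. A part of TFAP2A in the KRT14 values was not tested. With siGRB2-2 against siRNA negative control, 4 probes were at least 2-fold higher (GRHL2, JUNB, JUND and STAT3), where 6.71% of all probes were, and EHF was lower, at -1.52. The second probe of GRHL2 was at 0.29 and that of STAT3 at 0.71, and EHF was at -0.86 against Pre-miR negative control. JUNB, an AP-1 subunit, was at 1.49 there, at 0.27 against Pre-miR negative control and at -0.59 with Pre-miR-376c. None of the 4 was at least 2-fold higher than with Pre-miR negative control.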

How the data were processed

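Gene expression was measured in 4 cultures on 4 arrays, which were on 1 slide read in 1 scan. The labels do not say whether the cultures were transfected, or their RNA labelled, together. With 1 culture per condition a batch of that kind could not be told apart from the treatment. Precision is limited by the number of arrays. Per the labels and file headers, the files deposited by the authors for an array hold processed intensity values per spot with quality flags, as written by Agilent Feature Extraction (version 10.7.3.1). The authors also deposited log2 values per probe after 75th percentile normalization in GeneSpring GX. For 100% of the probes on each array that table equalled the scanner's log2 processed intensity minus a constant, within 0.01.

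Here the processed intensity was converted to log2, spots with an outlier flag were left out (289 to 329 per array), spots of a probe were averaged and each array was shifted to the 75th percentile of its 43118 non-control spots. A probe was detected when more than 0.5 of its spots were flagged well above background. It entered a count when detected on at least 1 of the 2 arrays, and when it was detected on only 1 its difference was a bound against the higher of its own dim signal and the lowest detected signal there. Medians were taken over probes detected on all 4 arrays. Through their accessions, 25422 of the 34127 probes were named from RefSeq (GRCh38.p14), which served for names and for the order of neighbouring genes, while no gene coordinates are given because the scanner files refer to another build. The members, the lists of related genes and the comparisons were chosen with earlier results of these data known. The genes named were the members, GRB2, up to 3 genes per list with the largest difference in either treatment, TP63, IVL, KRT4, KRT8 and KRT18, and the 5 non-member probes most like KRT14. Other genes named, such as further markers, KRT17P5 and second probes, were added after their values were seen. Lists were described by counts and medians without a test. The calculation was tested on simulated arrays.

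Python (3.11.15), numpy (2.4.6) and pandas (2.3.3) were used, with R (4.3.3) and limma (3.58.1) for quantile normalization and normexp (offset 50, without 7 spots whose local background exceeded 10 times the median). The other alternatives were a shift to the median, the 75th percentile of detected probes, the deposited log2 values, outlier spots kept, detection on both arrays, the mean of both negative controls or the other one as reference, and a limit of 1.5-fold.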

Additional observations from a re-analysis of the deposited data

How the results depend on the processing

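For Pre-miR-376c, the count of keratins at least 2-fold apart (2) became 0 against the other negative control. For siGRB2-2, the median difference of the 5 detected keratins (1.88) was 1.53 with quantile normalization, 1.59 with a median shift, 0.95 with normexp correction, 1.22 against the other negative control and 1.55 against the mean of both. Between the negative controls the count (1) became 0 with normexp correction and 4 with a 1.5-fold limit, and the median (-0.66) became -0.36 with quantile normalization, -0.39 with a median shift and -0.20 with normexp correction. The cause was not tested. Both the lower KRT14 and KRT17 of Pre-miR-376c and the higher KRT14 and KRT17 of siGRB2-2 stayed past 2-fold from their own controls with quantile normalization, a median shift and normexp correction, where normexp gave -1.28 and -1.21 for Pre-miR-376c and 2.29 and 2.07 for siGRB2-2. With the deposited log2 values, the percentile over detected probes or outlier spots kept, the differences of single keratins (15 of 15 in each) moved by less than their scanner error, while against the other negative control 8 of 10 moved by more and 3 changed sign. A median shift moved the median of all probes for siGRB2-2 from 0.15 to -0.13. No paired analysis was possible because there is 1 array per condition. Without replicates these values describe 4 cultures, and KRT5, KRT6A, KRT6B and KRT6C could not be compared because their signals did not reach detection.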

Other observations

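The probes highest with siGRB2-2 were listed after their values were seen. Of the 21239 probes detected on all 4 arrays, 59 (0.278%) were at least 2-fold higher with siGRB2-2 than on each of the other 3 arrays, and they named 38 genes. KRT14, KRT16, KRT17 and the pseudogene KRT16P2 were among them, so 3 of the 59 probes were basal or stress keratins. The others included TRIM22, an interferon-induced antiviral protein, CISH, a feedback inhibitor of cytokine receptors, PADI2, an enzyme that converts arginine residues to citrulline, and GCH1, the first enzyme of tetrahydrobiopterin synthesis.

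KRT42P, a keratin pseudogene, had a course of its own on one of its probes (A_33_P3857239), with signals of 147 with Pre-miR negative control, 307 with Pre-miR-376c, 42.2 with siRNA negative control and 263 with siGRB2-2. Its log2 difference was 1.44 with Pre-miR-376c, opposite to KRT14 and KRT17, and 2.43 with siGRB2-2 (1.27 against Pre-miR negative control). The other probe of KRT42P was at -0.01 and 0.40.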
